A study of Mus musculus with 6 samples.

Results

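The peaks described here are intergenic H3K27ac peaks of mouse quadriceps whose centre lies 50 kb or farther from the nearest RefSeq transcription start site (TSS). They were taken from both deposited peak lists as the rows annotated as intergenic at that distance. Of 46988 control peaks 5511 (11.7%) qualified, and of 40721 detrained peaks 4811 (11.8%). A control and a detrained peak were taken as the same region where each covered 50% or more of the other and neither had another such partner, which gave 2750 far intergenic pairs of 26432 pairs in all (10.4%). The members nearest to the limit lay at 50006 bp (control) and 50001 bp (detrained), and the farthest intergenic peaks left out lay at 49990 and 49995 bp. The rule also asked for no repeat in the detailed annotation, but that column read NA in every row, so no peak was removed by it.

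The mice of the study were C57BL/6J males, 8 weeks old at the start. Over the next 4 weeks each lived alone, and only the runners had a wheel in the cage. The control group was sedentary. The detrained group had run voluntarily and was killed 72 hours after the last bout. The labels give the strain of the H3K27ac libraries as C57BL/6 and that of the inputs as C57BL/7 and C57BL/8. Both groups were wild type, and each had 2 H3K27ac ChIP-seq libraries of quadriceps, a mixed hindlimb muscle, and 1 input library. The control libraries are called C2 and C3 and the detrained libraries Ex1 and Ex2, as in the table headers, and wherever a pair of values is given for a group, C2 comes before C3 and Ex1 before Ex2. The tissue was whole muscle, so a difference in the number of cells of a type and a difference in acetylation per cell cannot be told apart. The H3K27ac libraries held 20805019 to 22400894 tags, and the control input (10812470 tags) was shallower than the detrained input (21298438 tags). The tissue was checked by asking whether a listed peak covered a TSS of marker genes. This held for 12 of 13 muscle fiber markers in each list, for 5 of 5 endothelial, 4 of 4 fibro-adipogenic, 2 of 3 satellite cell and 1 of 3 Schwann cell markers in each list, and for 0 of 3 hepatocyte markers. Of 4 immune markers, 0 were covered in control and 3 in detrained mice, at 16.2 to 368 pooled tags per 10000000 total tags, and the part of such cells in the results below was not tested.

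Acetylation of lysine 27 of histone H3 is laid down at active promoters and enhancers by the acetyltransferases p300 and CBP. Enhancers can act on promoters over long distances through looping of the chromatin, and regions poor in genes often flank developmental regulators whose enhancers they hold. The gene with the nearest TSS is therefore a label for a far intergenic peak and not a shown target.

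The central 200 bases shared by both peaks of a pair are shown for the densest pairs, because these carry the strongest far intergenic signal, and for the pairs with the most extreme change, because these mark how far the groups moved apart. The sequences were read from the plus strand of GRCm38.p6, whose chromosomes share the coordinates of mm10. Capitals mark a match on either strand to any of 5 motifs, which are spelled out with the base composition. The 3 densest pairs follow.
Nearest 1810026B05Rik, chr7:73618103-73618302: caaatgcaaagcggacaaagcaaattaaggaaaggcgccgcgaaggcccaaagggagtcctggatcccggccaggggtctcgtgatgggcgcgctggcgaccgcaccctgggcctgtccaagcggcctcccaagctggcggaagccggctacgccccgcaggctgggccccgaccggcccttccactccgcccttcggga
Nearest Gm16675, chr8:46687077-46687276: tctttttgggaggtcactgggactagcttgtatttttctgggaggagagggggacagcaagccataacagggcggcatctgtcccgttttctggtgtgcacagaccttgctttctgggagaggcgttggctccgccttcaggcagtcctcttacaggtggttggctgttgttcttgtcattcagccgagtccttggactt
Nearest Rps6ka1, chr4:133814540-133814739: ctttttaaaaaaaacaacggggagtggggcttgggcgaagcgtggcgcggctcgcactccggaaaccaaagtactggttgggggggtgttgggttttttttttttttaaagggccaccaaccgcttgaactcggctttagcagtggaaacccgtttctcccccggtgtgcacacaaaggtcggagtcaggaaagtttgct
None of these windows held a motif match. The window near 1810026B05Rik was 68.5% G or C and held 19 CpG, that near Rps6ka1 held 12 and that near Gm16675 held 5. The next windows belong to the 2 largest increases, near Has2os and Ntng2, and the 2 largest decreases, near Zfp462 and Tet2.
Nearest Has2os, chr15:56616119-56616318: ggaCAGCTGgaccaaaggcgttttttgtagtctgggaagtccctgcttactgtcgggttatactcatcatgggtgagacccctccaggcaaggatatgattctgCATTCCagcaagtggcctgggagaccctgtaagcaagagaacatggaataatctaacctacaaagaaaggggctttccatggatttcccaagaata
Nearest Ntng2, chr2:29191014-29191213: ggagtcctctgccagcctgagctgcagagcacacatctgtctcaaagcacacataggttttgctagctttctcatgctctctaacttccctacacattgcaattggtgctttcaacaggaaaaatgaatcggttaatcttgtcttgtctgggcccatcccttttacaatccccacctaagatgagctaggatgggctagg
Nearest Zfp462, chr4:54872217-54872416: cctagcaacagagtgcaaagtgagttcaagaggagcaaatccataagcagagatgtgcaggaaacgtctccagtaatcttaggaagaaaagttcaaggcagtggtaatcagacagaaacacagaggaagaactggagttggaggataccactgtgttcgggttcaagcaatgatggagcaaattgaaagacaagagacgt
Nearest Tet2, chr3:133672774-133672973: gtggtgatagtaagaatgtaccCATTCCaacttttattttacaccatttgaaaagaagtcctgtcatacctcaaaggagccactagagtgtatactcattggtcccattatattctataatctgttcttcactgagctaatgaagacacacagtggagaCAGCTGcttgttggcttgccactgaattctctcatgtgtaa
The windows near Has2os and Tet2 each held 1 E-box and 1 TEAD match, and those near Ntng2 and Zfp462 held none. These windows held 0 to 3 CpG and were 39.5% to 48% G or C.

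Far intergenic peaks lay at a median of 105 kb from the nearest RefSeq TSS in control and 103 kb in detrained mice. In control mice 47.6% lay between 50 and 100 kb, 32.0% between 100 and 200 kb, 17.8% between 200 and 500 kb and 2.65% at 500 kb or farther. In detrained mice these shares were 48.5%, 31.97%, 16.98% and 2.52%. The farthest member lay at 1351 kb in control and 1214 kb in detrained mice. Upstream of the nearest TSS lay 54.1% of the control and 53.8% of the detrained members.

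**Figure D1:**
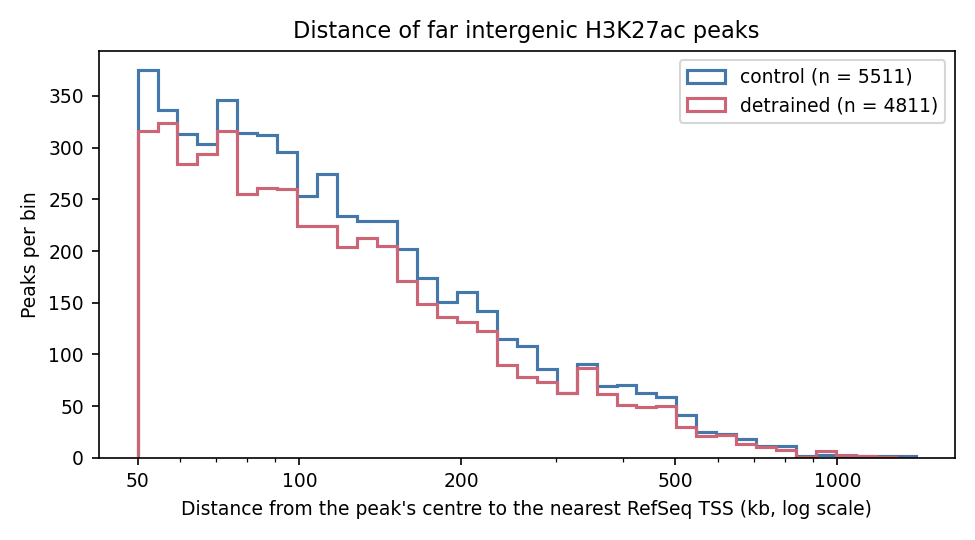
Number of far intergenic peaks per bin (y axis) by distance from the peak's centre to the nearest RefSeq TSS in kb on a log scale (x axis), as 1 line for the control list (n = 5511) and 1 for the detrained list (n = 4811). Both lines fall with distance from the 50 kb limit, with medians of 105 and 103 kb.

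The distances rest on the RefSeq annotation that the authors used. In GENCODE vM21, which lists more noncoding transcripts, 71.1% of the control members and 71.7% of the detrained members had a transcript start under 50 kb, so that the name gene desert holds for these peaks only with respect to RefSeq genes. A protein-coding start under 50 kb was far less common, since 87.7% of the members of each list stood 50 kb or farther from one. The centre lay in no GENCODE gene for 80.7% of the control and 79.8% of the detrained members, in a long noncoding gene for 13.4% and 14.1%, and in a protein-coding gene for 5.21% and 5.38%. A GENCODE start lay under 1 kb from 5.10% and 5.53% of the members. Among the pairs this share was 6.55%, against 19 of the 100 densest pairs.

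Members were spread over the autosomes and X, with 1 in the control list on Y. Chromosome 13 held the most per Mb, at 3.66 in control and 3.21 in detrained mice, where they made up 22.5% and 22.1% of its peaks. Chromosome 11 had the smallest share among the autosomes, at 5.56% and 5.70%. On X there were 0.772 and 0.760 per Mb. Where members were joined over gaps of at most 10 kb, 44.6% of the control members stood alone and 32.1% lay in runs of 3 or more. In the detrained list 49.8% stood alone and 26.0% lay in such runs. The largest run in both lists lay near A530013C23Rik, a noncoding RNA gene, at chr2:167740487-167865267 with 17 peaks in control and at chr2:167744523-167865164 with 14 peaks in detrained mice.

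The members were nearest to 1908 genes in control and 1826 genes in detrained mice, of which 828 and 855 had a single member. Genes with 10 or more members numbered 74 and 60 and took 19.4% and 16.6% of the members. The nearest gene was protein coding for 72.3% and 72.0%. Of the members whose nearest gene could be matched to GENCODE by symbol (97.6% and 97.8%), 63.8% and 63.9% had a listed peak over a TSS of that gene in the same list. The same share was 71.4% and 72.7% for intergenic peaks nearer than 50 kb, and 80.8% and 80.2% for intron peaks 10 kb or farther from a TSS. No test was made of these shares, because peaks of 1 locus share their nearest gene.

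Plpp3, which encodes a lipid phosphate phosphatase of the cell surface, had the most members, 32 in control and 25 in detrained mice, over 397 kb of chromosome 4. Its 14 pairs had median densities of 34.3 and 31.3 tags per kb in the control libraries against 34.3 and 36.9 in the detrained ones. The summed tags of its members were close in both lists, 1972 and 1977 per 10000000. Acvr2a, an activin receptor through which myostatin restrains muscle growth, had 25 and 21 members over 913 kb, and its 11 pairs had a median log2 ratio of detrained to control density of -0.015. Klf4, a zinc finger transcription factor, had 24 and 21 members, with 10 pairs at a median of 0.14. Maf, a leucine zipper transcription factor, had 26 and 17 members, with 13 pairs at a median of 0.043. Trib2, a pseudokinase, had 22 and 20 members. Pik3r1, the regulatory subunit of phosphoinositide 3-kinase in insulin signaling, had 23 and 17, and its 12 pairs had a median of -0.033. Cops8, a subunit of the COP9 signalosome, had 23 and 17, and Tbl1xr1, a component of nuclear corepressor complexes, had 22 and 18. The noncoding RNA genes among these loci were 4933416E03Rik with 27 and 17 members and Gm12724 with 22 and 19.

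The locus of 4933416E03Rik had the lowest ratio of summed tags among the 10 loci with the most members. Over chr2:159414178-159891520 its members summed to 1547 tags in the control and 800.2 tags in the detrained list, a log2 ratio of -0.95. The length covered by the members also differed, 51.0 kb against 28.3 kb, and the tags per covered kb were 30.4 and 28.3. Only 5 of its peaks were paired, and these had a median log2 ratio of 0.072, with densities of 41.1 and 36.6 tags per kb in the control libraries against 43.3 and 48.5 in the detrained ones. Of its control members 17 had no overlapping detrained peak, and of its detrained members 7 had no overlapping control peak, 63% and 41.2%, against 33.2% and 25.3% of the far intergenic members and 27.9% and 18% of all listed peaks. Among the 83 loci with 10 or more members in at least 1 list, the log2 ratio of summed tags had a median of -0.027 and ran from -1.49, near Spred2, a negative regulator of Ras signaling, to 0.55, near Gm34184. The members near Spred2 covered 11.5 kb in the control and 4.40 kb in the detrained list, with 27.2 and 25.2 tags per covered kb, and those near Gm34184 covered 10.5 and 13.5 kb, with 19.7 and 22.4. These extremes were chosen after their values were seen.

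Far intergenic peaks were weak in comparison with promoters and close to the other distal peaks. Their median length was 1367 bp (control list) and 1668 bp (detrained list), and their median pooled signal was 30.8 and 39.6 tags per 10000000 total tags. The mean deposited log2 value of a group's libraries exceeded that of its input by a median of 2.14 and 2.07. Peaks of 10 kb or longer numbered 20 and 25. Density was the estimated tags of a library plus 0.5, per kb of called peak and per 10000000 total tags, and is given as tags per kb or as its log2. Over the 2750 pairs the median density came to 29.1 and 30.04 tags per kb in the control libraries against 30.03 and 29.6 in the detrained ones. The quartiles ran from 22.2 to 39.1 for C2, from 22.6 to 41.7 for C3, from 22.4 to 40.5 for Ex1 and from 22.6 to 40.3 for Ex2. The 4 libraries were thus nearly level, with the spread lying among the pairs.

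Within each library the far intergenic pairs stood below the 4611 pairs of intergenic peaks nearer than 50 kb. The difference in median log2 density was -0.11 and -0.13 in the control libraries and -0.11 in each detrained library, with a mean of -0.12 ± 0.012 (SD, n = 4 libraries). It was negative in 4 of 4 libraries and amounted to 0.923 times the density of the nearer peaks. The library values of a group were split from the same pooled tags and called lengths by log2 values that are shrunken within a group. The differences within a group are therefore not independent, and the SD can understate the spread, here and in the comparisons that follow. An exact permutation test over the signs of the 4 differences gave p = 0.12, two-sided, which is the smallest value that 4 libraries can give. Against the 6800 pairs in introns 10 kb or farther from a TSS the mean difference was -0.085 ± 0.036, and against the 3645 promoter pairs it was -1.16 ± 0.053, each negative in 4 of 4 libraries with the same exact p of 0.12, and Benjamini-Hochberg adjustment over the 3 comparisons left each at 0.12. Within the class, distance went with density hardly at all, with Spearman correlations over pairs between -0.037 and -0.030 in the 4 libraries, where pairs share their libraries.

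**Figure D2:**
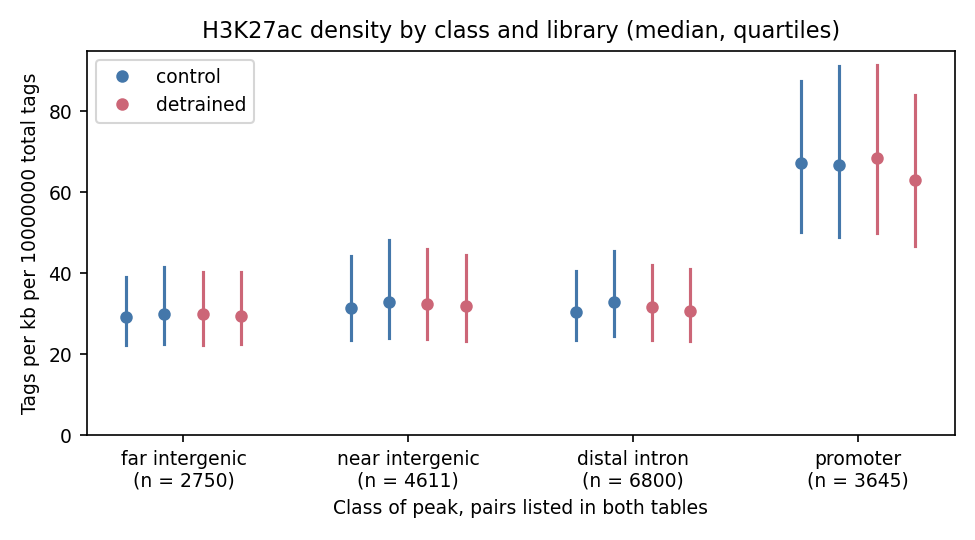
H3K27ac density in tags per kb per 10000000 total tags (y axis) for 4 classes of pairs (x axis), where points are medians over pairs and lines run from the lower to the upper quartile, from left to right for C2, C3, Ex1 and Ex2. Far intergenic pairs have medians of 29.1 to 30.0 in the 4 libraries, below the 31.6 to 33.0 of nearer intergenic pairs, and promoter pairs have medians of 63.0 to 68.4.

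The densest far intergenic pair lay at chr7:73615795-73620609 in control mice, 59.8 kb upstream of the noncoding RNA gene 1810026B05Rik. It had 181 tags per kb in C2 and 206 in C3 against 121 in Ex1 and 122 in Ex2. Both detrained libraries were below both control libraries, but the called peak was longer in the detrained list (7983 bp against 4814 bp), and the pooled tags of the whole peak were 931.7 and 972.5. The pair near Gm16675, in a long noncoding gene at chr8:46686678-46687859, had 124 and 148 tags per kb in control and 139 and 146 in detrained libraries, which overlap. Near Rps6ka1, which encodes the ribosomal S6 kinase RSK1, the pair at chr4:133812330-133816949 had 138 and 145 against 129 and 112. Its tags in the whole peak, per 10000000 total tags, were 639 and 670 against 668 and 579, which overlap.

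Jun, a subunit of the transcription factor AP-1, followed with a pair 105 kb upstream, called at 13497 bp in the control and 13954 bp in the detrained list. Its densities were 106 and 141 tags per kb in the control libraries against 123 and 118 in the detrained ones, so the detrained libraries fell between the control libraries. The 10 pairs nearest to Jun had a median log2 ratio of 0.26 by density, with 0 lower and 5 higher, and of 0.056 by tags in the whole peak. Tob1, an antiproliferative protein, had a pair of 12053 bp and 10977 bp at 75.5 kb upstream, with 108 and 129 against 125 and 120. Of the 3 pairs nearest to Tob1 2 were lower by density. The same overlap was found near Sept5, a septin, with 95.5 and 121 against 108 and 110, and near Mbnl1, the splicing regulator sequestered in myotonic dystrophy, with 87.1 and 114 against 113 and 114. Calm2, one of the genes encoding calmodulin, had 107 and 104 against 110 and 93.4. Near Gm4832 density was 108 and 144 against 94.7 and 84.1, but the called peak lengthened from 3390 to 5187 bp and the tags in the whole peak overlapped, with 367 and 489 against 491 and 436. Near Zfp958 density was 112 and 110 against 97.8 and 98.2, and the tags in the whole peak were also lower in both detrained libraries, with 212 and 207 against 183 and 184. By density 4 of the 10 densest pairs had both detrained libraries below both control libraries and 0 had both above, where 27.2% and 21.3% of all pairs did so. By tags in the whole peak these numbers were 1 and 0, where 28.8% and 24.7% of all pairs did so. A GENCODE start lay under 1 kb from 3 of them, near Tob1, Zfp958 and Calm2.

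The longest pairs were broad domains. The longest by the mean of both lists lay near A530013C23Rik and Cops8. The former measured 17979 bp in the control and 21127 bp in the detrained list, with 63.4 and 63.5 tags per kb in the control libraries against 52.1 and 57.6 in the detrained ones, while its whole-peak tags overlapped (1140 and 1141 against 1101 and 1216). The latter was 15422 bp and 23528 bp, with 49.97 and 49.5 against 44.2 and 42.7, while its pooled tags were 766.6 and 1021, so the detrained libraries were the lower per kb and the higher per whole peak. Domains near Spag17, a protein of the motile cilium, and near Klf9, a glucocorticoid-responsive transcription factor, had overlapping groups, with 71.5 and 85.8 against 77.2 and 73.3 and with 80.1 and 79.3 against 78.1 and 88.1. Ugp2, which makes the UDP-glucose used for glycogen, had 53.1 and 63.4 against 72.2 and 62.8.

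At the other end of the scale of distance, the farthest pair lay 1213 kb from the TSS of Pla2g4a, a cytosolic phospholipase, with 21.8 and 20.8 tags per kb in the control libraries against 19.3 and 28.1 in the detrained ones. A pair 1107 kb from Gm4710 had 35.6 and 51.7 against 33.7 and 31.1. Both detrained libraries were below both control libraries by density, but the called peak lengthened from 2773 to 3398 bp and the tags in the whole peak overlapped, with 98.4 and 143 against 114 and 106. Adgrl2, an adhesion receptor of the latrophilin family, was nearest to pairs at 1006 and 987.9 kb, with 49.5 and 59.4 against 51.8 and 51.5, and with 22.3 and 34.5 against 23.3 and 32.6. Its groups overlapped by density, but both detrained libraries were the lower by tags in the whole peak, at log2 ratios of -0.45 and -0.88. The pair 807.5 kb upstream of Tbl1xr1 had 46.6 and 63.3 against 60.3 and 52.8, and its centre lay 0.030 kb from the start of Gm29137, a GENCODE long noncoding gene. Pairs at these distances were thus called with densities on both sides of the class median.

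The comparison of the groups asked whether H3K27ac at far intergenic sites paired between the lists differed in detrained mice once 72 hours had passed without running. The pairs held 49.9% of the control and 57.2% of the detrained members, and sites listed in 1 group only do not enter these values. Mean log2 density over the 2750 pairs was 4.90 and 4.96 in the control libraries against 4.94 and 4.93 in the detrained ones, which gave group means of 4.93 ± 0.046 and 4.93 ± 0.012 (SD, n = 2 each). The mean log2 ratio was 0.0046, a difference of 0.319% in density that was smaller than the pooled SD between libraries of 0.033. An exact permutation test of 2 against 2 libraries gave p = 1, two-sided, where 0.33 is the smallest value it can give. Relative to the nearer intergenic pairs the mean log2 density was -0.139 for C2, -0.146 for C3, -0.127 for Ex1 and -0.114 for Ex2. On this within-library scale both detrained libraries lay above both control libraries, by 0.022 on average, with a pooled SD of 0.0073. The pooled SDs of this comparison rest on values split from shared pooled tags by shrunken logs and can understate the spread between libraries. Relative to all other pairs the values were -0.45, -0.45, -0.44 and -0.40, a difference of 0.035 with a pooled SD of 0.022. The same exact test gave p = 0.33 for each of these, the smallest value that 2 against 2 libraries can give, so the design could not reach a threshold of 0.05.

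At 589 of the 2750 far intergenic pairs (21.4%) both control libraries exceeded both detrained ones, while 27.2% of all 26432 pairs did so. Both lay above at 644 pairs (23.4%), against 21.3% of all pairs. The far intergenic pairs thus had a smaller share of lower pairs than the whole and a share of higher pairs close to it. The deposited log2 values are shrunken within a group, which can raise the number of pairs without overlap in every class. The split between lower and higher turned with the control library left out, with more lower than higher pairs without C2 and the reverse without C3. It also depended on scaling. With densities scaled to the tags in listed peaks it was 464 (16.9%) and 817 (29.7%), where 22% and 27.8% of all pairs were lower and higher. With the deposited log2 values used directly it was 172 (6.25%) and 1446 (52.6%), where 7.98% and 51.7% of all pairs were, and the mean log2 ratio rose to 0.23. Pairs that did not overlap and were at least 2-fold apart numbered 2 lower and 0 higher, where 0.0605% and 0.0151% of all pairs were called. At 1.5-fold there were 45 lower (1.64%) and 35 higher (1.27%), against 2.06% and 1.10% of all pairs.

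**Figure D3:**
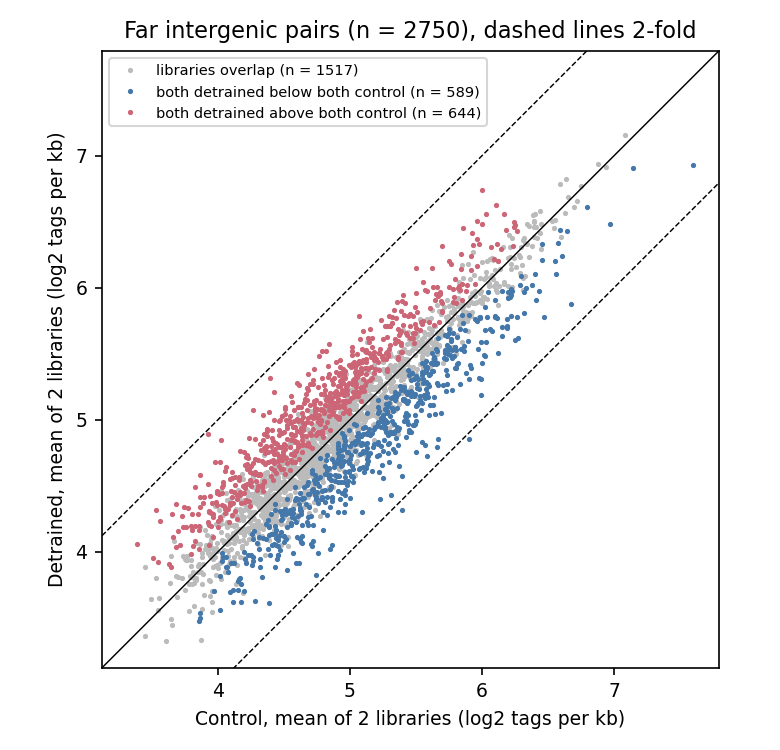
Mean log2 density of the 2 detrained libraries (y axis) against the mean of the 2 control libraries (x axis), both in log2 tags per kb, for each of the 2750 far intergenic pairs, with the line of equality and dashed lines at 2-fold. The points follow the line of equality, 589 are colored as lower and 644 as higher in both detrained libraries, and 2 of these lie past a 2-fold line.

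The change did not differ much along the class. By distance the mean log2 ratio was 0.0046 for 1348 pairs between 50 and 100 kb, 0.0036 for 899 pairs between 100 and 200 kb, 0.012 for 439 pairs between 200 and 500 kb and -0.033 for 64 pairs at 500 kb or farther. Split into 4 bins of density, it was 0.0067, 0.011, 0.016 and -0.015 from the weakest to the strongest bin. In the strongest bin 26.9% of the pairs were lower in both detrained libraries and 22.97% higher, against 18.6% and 20.1% in the weakest.

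The pairs with the largest ratios were chosen by these values, so their values are a description. The largest increase, at chr15:56615717-56616799 near Has2os, the antisense transcript of hyaluronan synthase 2, had 16.8 and 13.7 tags per kb in the control libraries against 32.1 and 27.5 in the detrained ones, a log2 ratio of 0.97. The called peak shortened from 1082 to 664 bp, and the log2 ratio of tags in the whole peak was 0.26. Near Ntng2, a netrin of the axon surface, densities were 19.8 and 22.4 against 38.4 and 41.4 and the whole-peak log2 ratio was 0.43. That peak lay 12.4 kb from a coding start of Ntng2 in GENCODE. The increases near Fggy, a carbohydrate kinase, and Kctd3 (log2 ratios of 0.82 and 0.79) were not seen in tags of the whole peak, with log2 ratios of -0.049 and -0.092, where both detrained peaks had a length of 500 bp, the shortest among the members. Near Gm34184 the ratio was 0.81 per kb and 0.21 for the whole peak.

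The largest decrease lay at chr4:54871678-54872954 near Zfp462, a zinc finger protein, with 36.3 and 48.6 tags per kb in the control libraries against 20.5 and 19.4 in the detrained ones, a log2 ratio of -1.07. Its whole-peak log2 ratio was -0.39. Near Tet2, a methylcytosine dioxygenase, the pair at chr3:133672421-133673192 had 59.9 and 59.8 against 24.7 and 34.1, a log2 ratio of -1.04, and the whole-peak value was -0.80. These were the 2 pairs past 2-fold. The pair near Slc41a2, a magnesium transporter, had 25.4 and 28.2 against 11.7 and 17.1 (log2 ratio -0.92), and its whole-peak tags went further in the same direction, from 58.1 to 20.2. Near Egfr, the epidermal growth factor receptor, densities were 55.7 and 45.98 against 25.03 and 30.8 (-0.87), with a called peak of 631 bp in the control and 912 bp in the detrained list and a whole-peak log2 ratio of -0.33. Near Rbpj, the DNA-binding factor of Notch signaling, they were 40.8 and 38.5 against 20.6 and 22.6 (-0.88), while the called peak grew from 891 to 1727 bp and pooled tags were 35.1 and 37.1. Among the loci of the 10 extreme pairs, 5 had more than 1 pair, and these are given over all their pairs. The 9 pairs nearest to Zfp462 had a median log2 ratio of 0.047, with 2 lower and 1 higher, the 6 nearest to Rbpj a median of 0.024, with 2 lower and 3 higher, and the 9 nearest to Fggy a median of -0.088, with 2 lower and 1 higher. The 6 nearest to Gm34184 had a median of 0.31, with 0 lower and 4 higher, and the 6 nearest to Kctd3 a median of 0.23, with 0 lower and 2 higher.

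**Figure D4:**
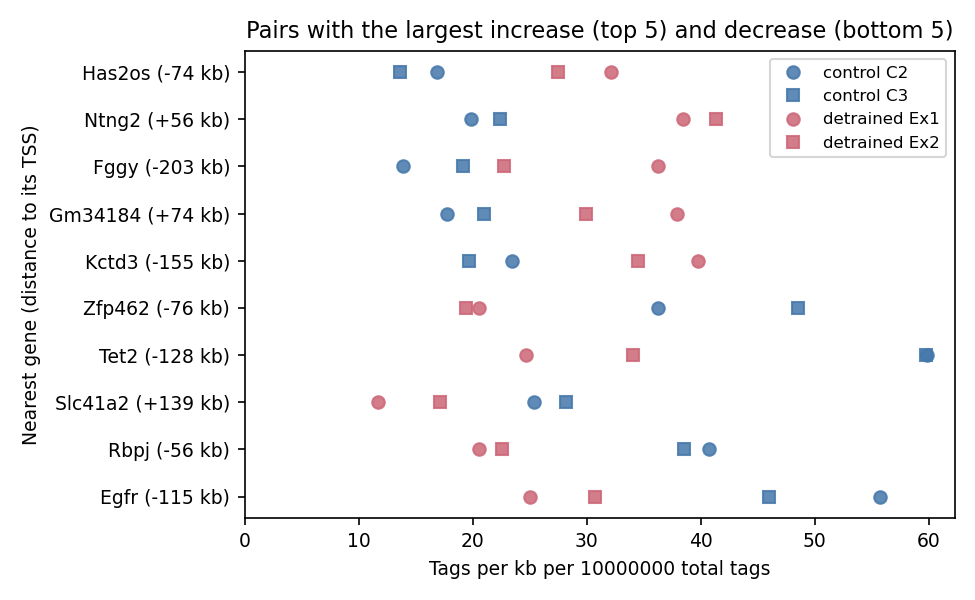
Density in tags per kb per 10000000 total tags (x axis) in each of the 4 libraries for the 5 pairs with the largest increase and the 5 with the largest decrease (y axis, named by the nearest gene with the distance to its TSS). The groups do not overlap in any of the 10, which is how they were chosen, and no value exceeds 59.9.

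Density divides by the called length, and called lengths differed between the lists. Detrained peaks were the longer in 1522 of the 2750 pairs (55.3%), with a median log2 length ratio of 0.052, and the median log2 ratio of pooled tags was 0.057. Counted as tags per peak, 665 pairs (24.2%) were lower and 893 (32.5%) higher in both detrained libraries, against 28.8% and 24.7% of all pairs. At least 2-fold apart without overlap were 16 lower (0.582%) and 35 higher (1.27%), 51 in all against 2 by density, where 0.704% and 0.794% of all pairs were.

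Gene lists for this tissue, chosen with earlier results of these data known, were counted by nearest gene. The whole class (21.4% lower, 23.4% higher, median log2 ratio 0.0054) served for comparison. Of 117 developmental transcription factor genes 37 had a far intergenic pair, with 111 pairs in all, a median log2 ratio of 0.0093, 31 pairs lower and 26 higher. They were nearest to 3.92% of the control and 3.82% of the detrained members. The densest pair of Klf4, at 119 kb upstream, had 69.7 and 68.3 tags per kb in the control libraries against 111 and 87.5 in the detrained ones. That of Mef2a, which encodes a transcription factor of the muscle differentiation program, had 72.2 and 85.5 against 67.4 and 69.1, and that of Nr2f1, an orphan nuclear receptor, had 57.2 and 79.2 against 69.8 and 67.1. At these pairs both detrained libraries were above both control libraries by density for Klf4 and below them for Mef2a, and the groups overlapped for Nr2f1. By tags in the whole peak the groups overlapped for Klf4 (377 and 369 against 446 and 351) and for Mef2a (334 and 395 against 356 and 365), while both detrained libraries were the lower for Nr2f1 (132 and 183 against 92.4 and 88.9). Over all pairs of a gene, 4 were lower and 2 higher of 10 near Klf4 (median log2 ratio 0.14) and 2 lower and 0 higher of 3 near Mef2a (-0.20), while Nr2f1 had 1 pair.

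Of 70 genes of the sarcomere and of calcium handling 4 had a far intergenic pair, with 6 pairs, 1 lower and 3 higher. The values that follow are those of each gene's densest pair. Myom2, a protein of the M band, had 81.9 and 107 tags per kb in the control libraries against 86.2 and 89.0 in the detrained ones. Jph1, which joins the T tubule to the sarcoplasmic reticulum, had 51.5 and 55.1 against 48.9 and 42.8. Trdn, triadin of the calcium release complex, had 36.6 and 46.0 against 35.1 and 38.2, and Fhl2, a LIM domain protein, had 26.6 and 27.8 against 33.5 and 32.3. The groups overlapped for Myom2 and Trdn, while the detrained libraries were the lower at the densest pair of Jph1 and the higher at that of Fhl2. The other pair of Jph1 was higher (median log2 ratio of both pairs 0.049), as was the other pair of Fhl2 (0.27). By tags in the whole peak the directions at the densest pairs of Jph1 and Fhl2 were the same (log2 ratios of -0.39 and 0.090), the groups overlapped for Trdn, and both detrained libraries were the lower for Myom2 (-0.36).

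Genes of metabolism and the exercise response had 30 pairs at 11 of 68 genes, with a median log2 ratio of 0.096, 3 pairs lower and 10 higher. For the densest pair of each gene the values were as follows. Nampt, the enzyme of NAD salvage, had 68.5 and 70.7 tags per kb in the control libraries against 71.3 and 76.0 in the detrained ones. Sik1, a kinase induced by cyclic AMP, had 62.6 and 68.7 against 65.9 and 55.1. The pair nearest to Ppargc1a, which encodes the coactivator PGC1α, lay at 512.8 kb with 39.3 and 65.0 against 59.0 and 58.1, and Irs2, an adaptor of the insulin receptor, had 50.4 and 52.3 against 45.7 and 53.3. At these pairs the groups did not overlap by density for Nampt and overlapped for Sik1, Ppargc1a and Irs2. By tags in the whole peak they overlapped for Nampt (216 and 223 against 217 and 231) and Sik1, and both detrained libraries were the higher for Ppargc1a and Irs2 (log2 ratios of 0.39 and 0.34). Over all pairs of a gene by density, 2 were lower and 2 higher of 4 near Nampt (median log2 ratio -0.020), 1 lower and 3 higher of 5 near Sik1 (0.19), and 0 lower and 1 higher of 5 near Irs2 (0.046), while Ppargc1a had 1 pair.

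Genes of vessels, matrix and growth factor signaling had 55 pairs at 28 of 89 genes, with a median log2 ratio of -0.030, 11 pairs lower and 13 higher. The densest pair of Col4a2, a chain of basement membrane collagen, had 51.5 and 65.2 tags per kb in the control libraries against 91.6 and 83.8 in the detrained ones, but the called peak shortened from 4764 to 3418 bp and the whole-peak log2 ratio was 0.11. That of Wnt11, a noncanonical Wnt ligand, had 40.6 and 31.3 against 49.2 and 54.2 (whole-peak log2 ratio 0.053). For both pairs the tags in the whole peak overlapped between groups. The densest pair of Col6a3, a chain of collagen VI, had 46.6 and 48.3 against 43.5 and 41.4, but its called peak lengthened from 2624 to 3282 bp and its tags in the whole peak were higher in both detrained libraries (122 and 126 against 143 and 136). Of the 4 pairs nearest to Col6a3 1 was lower and 2 were higher by density, with a median log2 ratio of 0.11 by density and of -0.090 by tags in the whole peak. The only pair of Col5a2, a chain of collagen V, had overlapping densities of 49.5 and 49.3 against 50.6 and 43.1, with higher tags in the whole peak in both detrained libraries (log2 ratio 0.49). None of the 4 lists held a pair 2-fold apart, and no list was tested.

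The log2 ratios of neighboring far intergenic pairs were hardly correlated, and these ratios also carry differences in called length. Over 1472 pairs of neighbors within 100 kb, which share libraries and loci, the log2 ratios had a Spearman correlation of 0.068, and over 1258 neighbors farther apart one of 0.034. The median ratio of the far intergenic pairs of a gene and the ratio of the pair over its TSS had a Spearman correlation of 0.068 over 713 genes, and 372 of these genes had the same sign for both.

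The members outside these pairs either overlapped a peak of the other list in another way or overlapped none. Of the control members 2750 were paired within the class, 10 were paired with a peak of another class, 920 overlapped a detrained peak by less than 50% or not one to one, and 1831 (33.2%) overlapped none. Of the detrained members these numbers were 2750, 9, 834 and 1218 (25.3%). Among all listed peaks 27.9% of the control and 18% of the detrained peaks had no overlap, and among nearer intergenic peaks 30.3% and 19.98%. The far intergenic members without overlap were weak and short, with a median of 14.3 pooled tags and 799 bp in control and 18.5 tags and 1056 bp in detrained mice, against 59.2 tags and 1979 bp, and 62.2 tags and 2056 bp, for the paired members. At under 20 pooled tags 67.9% of the control and 60.8% of the detrained members had no overlap, and at 100 or more 0.579% and 0.549%. The corresponding shares for all listed peaks were 68.9% and 57.4%, and 0.454% and 0.239%. Members of high signal were thus nearly always met by a peak of the other list.

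**Figure D5:**
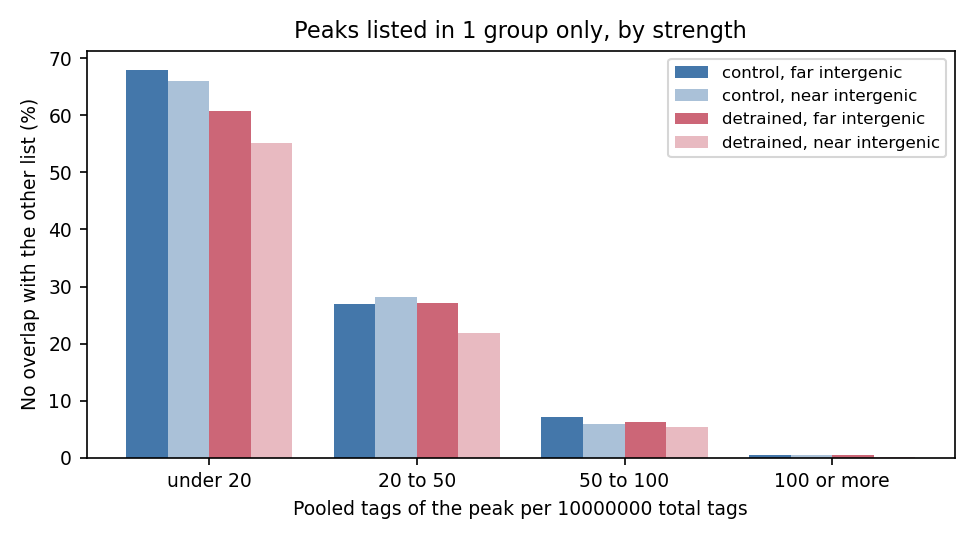
Share of peaks in percent that overlap no peak of the other list (y axis) by pooled tags of the peak per 10000000 total tags (x axis), as bars for far intergenic (full color) and nearer intergenic peaks (pale) of each list. The share falls from 67.9% of the control and 60.8% of the detrained far intergenic peaks under 20 tags to 0.579% and 0.549% at 100 tags or more.

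Which list had more unmatched members was not stable. With only peaks at least 4-fold over input and at an adjusted p under 0.001, 309 of 2079 control members (14.9%) and 655 of 2410 detrained members (27.2%) had no overlap, against 11.3% and 15.4% of all listed peaks under the same filter. With equal numbers of the densest peaks in each list, by pooled tags per kb, the counts were 1113 (24.1%) and 1367 (28.4%), against 19.8% and 20.3% of all such peaks. Where an overlap had to cover 50% of each peak, 49.9% of the control and 42.7% of the detrained members had none, against 43.7% and 35.1% of all listed peaks. Among members with no GENCODE start under 50 kb, 572 of 1595 (35.9%) and 365 of 1363 (26.8%) had no overlap, against 37.8% and 26.8% of all listed peaks that passed the same limit. The inputs differed in depth, and the part of this in the lists was not tested. The strongest control member without a detrained peak lay at chr2:159848390-159853496 near 4933416E03Rik, with 151 pooled tags and densities of 33.1 and 25.9 tags per kb. A second at the same locus, at chr2:159816327-159820239, had 147 pooled tags with 39.6 and 35.6 tags per kb, and the next lay near F930015N05Rik with 116 pooled tags. The strongest detrained member without a control peak lay at chr13:112743172-112746734 near Plpp1, a paralog of Plpp3, with 142 pooled tags and 43.5 and 36.4 tags per kb in Ex1 and Ex2. It was followed by members near Gm11266 with 128 pooled tags and near Kdm7a, a histone demethylase, with 118.

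Base composition and motifs were measured in the central 300 bases of every member. The median share of G and C was 45.7% in control and 46% in detrained mice, against 48% and 48.3% in nearer intergenic, 46.3% and 46.7% in intron and 61.3% in promoter peaks of both lists. CpG numbered 3.70 and 3.77 per window on average, against 4.62 and 4.69 in nearer intergenic and 21.6 in promoter peaks. The middle base was soft-masked as a repeat in 14.4% and 13.9% of the members, and in 17.2% of the nearer intergenic peaks of each list. Far intergenic windows were thus somewhat poorer in G and C, CpG and masked repeats than the nearer intergenic ones.

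The motifs were searched on both strands, and a match is a run of letters and not a shown site. The E-box of myogenic regulators (CAGCTG) was found in 19.9% of the control and 20.3% of the detrained members, against 20% and 20.2% of nearer intergenic and 14.8% and 14.6% of promoter peaks. AP-1 (TGANTCA) was found in 12.4% and 14.1% of the members, 12% and 12.6% of nearer intergenic, 10.8% and 11.7% of intron and 4.84% and 4.91% of promoter peaks. TEAD (GGAATG) was found in 18.4% and 18.9%, 16.5% and 16.9%, 16.9% and 16.7%, and 11.4% and 10.9% of the same classes in that order. MEF2, searched as CTA, any 4 bases and TAG, was found in 5.24% and 5.45% of the members and in 5.43% and 5.07% of nearer intergenic peaks. ERR (TCAAGGTCA), a site of estrogen-related receptors, was rare, in 0.563% and 0.811% of the members and 0.888% and 1.13% of nearer intergenic peaks. In both lists TEAD and AP-1 matches had a higher share in the far intergenic class than in any of the other 3 classes, by 0.426 to 1.97 percentage points, and these shares were not tested. The E-box and MEF2 shares stood within 1 percentage point of those in nearer intergenic peaks.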

How the data were processed

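The authors aligned reads to mm10 (Bowtie 1.2 in the submitters' processing notes), built HOMER tag directories and called peaks over the group's input with both H3K27ac libraries of a group together, which gave a list for each group. The deposited signal of a peak is its pooled tags per 10000000 total tags. Per library, the authors deposited log2 values, which are regularized logs made within each table. The deposited log2 fold over input and adjusted p-value per peak were used only to filter peaks. The authors' detailed annotation was NA in every row.

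Pooled tags were shared between the libraries of a group in proportion to their totals and 2 to the power of the log2 value, 0.5 tags were added, and density was per kb of called peak (end minus start) and per 10000000 total tags. A pair needed a unique overlap covering 50% or more of each peak. Classes were compared within libraries with an exact sign permutation test over 4 libraries. Mean densities of the groups were compared with an exact permutation test of 2 against 2 libraries, a test added after seeing the data. Single pairs were not tested, since the tables were normalized separately. Replicates are separate samples in the labels, and any p measures only the spread between libraries. The library values of a group share pooled tags and called lengths, so this spread can be understated. Control columns C2 and C3 were assigned to the group only, because the labels number the control samples differently.

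Members and lists were chosen with earlier results of these data known. Named pairs were the 10 densest, the 5 largest increases and decreases without overlap of libraries, the 5 farthest, the 5 longest, the 3 strongest peaks of each list without overlap, the 10 nearest genes with the most members and up to 4 genes per list. Sequences came from RefSeq's GRCm38.p6 and genes from GENCODE vM21. The result for 1 further motif is not reported here. Versions used were pysam 0.24.0, scipy 1.17.1, pandas 2.3.3, numpy 2.4.6 and matplotlib 3.10.9 under Python 3.11.15, and the steps were tested on simulated data.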

Additional observations from a re-analysis of the deposited data

How the results depend on the processing

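The level of far intergenic pairs against nearer intergenic pairs stayed negative in all 16 alternatives (-0.18 to -0.094 on the log2 scale), and the change relative to nearer intergenic pairs stayed positive in all 16 (0.016 to 0.029), including those that left out 1 library (-0.12 to -0.11 for the level, 0.016 to 0.029 for the relative change). The change between groups moved from 0.0046 to 0.057 with tags per peak, to 0.23 with the deposited log2 values and to 0.055 with densities per tag in listed peaks, and it ran from -0.028 without C2 to 0.037 without C3, so its sign depended on the library. The 2 pairs at least 2-fold apart became 51 with tags per peak, 7 with the deposited log2 values, 0 with 80% of each peak covered, 9 with any one-to-one overlap, 1 at 100 kb or farther, 1 among peaks at least 4-fold over input, 80 at 1.5-fold, 1 to 10 when 1 library was left out, and 0 without members that have a GENCODE start under 50 kb. The matching shares of all pairs were taken only for the reported setting, for tags per peak and at 1.5-fold, as given above. For the other settings no such share was taken, so their counts cannot show whether far intergenic pairs differed from all pairs. Control members with no detrained peak numbered 309 of 2079 (14.9%) among peaks at least 4-fold over input, 2751 of 5511 (49.9%) when 50% of each peak had to be covered, 1113 of 4618 (24.1%) with equal numbers of the densest peaks and 572 of 1595 (35.9%) without members that have a GENCODE start under 50 kb, against 33.2% as reported. Detrained members with no control peak numbered 655 of 2410 (27.2%), 2052 of 4811 (42.7%), 1367 of 4811 (28.4%) and 365 of 1363 (26.8%), against 25.3%. Without peaks that have a GENCODE start under 50 kb, 37.8% of all listed control and 26.8% of all listed detrained peaks had no overlap. The causes were not tested, except that fewer members entered some alternatives. Leaving out members with a GENCODE start under 50 kb or a soft-masked middle base was chosen after seeing the data, and the latter changed no result by its threshold. Including repeats was not run, because the repeat condition removed no peak. No paired analysis was possible because C2 and C3 carry numbers other than those of the labels, so fewer than 2 numbers are shared with Ex1 and Ex2. Depth limits single weak peaks, which carry few tags per library, and the deposited tables give no counts.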
